A study of Homo sapiens with 6 samples.

Results

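The plasminogen activation system was examined in MCF10A cells through 5 genes of the deposited RNA-Seq table: the activators PLAU and PLAT, the urokinase receptor PLAUR, and the inhibitors SERPINE2 and SERPINB2. They were taken by name from the 19198 genes listed, and all 5 passed the minimum mean of 10 normalized counts that left 16988 genes to test. MCF10A is an established, non-tumorigenic line of human mammary epithelial cells. The control cells (3 samples) were grown in DMEM:F12 with 5% horse serum plus insulin at 10 µg/ml, EGF at 20 ng/ml, cholera toxin at 100 ng/ml and hydrocortisone at 0.5 µg/ml. The growth factor-depleted cells (3 samples) had the same basal medium and 5% horse serum but none of these 4 additions, so every comparison is of their joint removal and none of a single factor. The study used this medium to induce an epithelial to mesenchymal transition (EMT) without added TGFβ. The day of harvest is not given for these samples, and nothing in the labels says that replicates came from separate cultures, so p-values measure the spread between these samples only.

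Plasminogen is a circulating zymogen that is cut to plasmin, a broad serine protease that dissolves fibrin, degrades matrix proteins and activates other zymogens. Urokinase (PLAU) does this mainly at the cell surface, where it is held by its receptor PLAUR, and tissue-type activator (PLAT) does it mainly on fibrin. Serpins stop the activators by forming covalent complexes with them, which are then cleared by endocytic receptors. In epithelia the system is best known from wound repair, cell migration and tumour invasion. The cells need not make plasminogen themselves, since serum contains it.

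The libraries held between 7472418 and 28672630 recovered reads on genes, and depleted replicate 3 was the shallowest. On the principal components of the 500 most variable genes, the component with 81.6% of the variance parted the conditions, and the next one, with 8.08%, set the first depleted library (score 35.3) against depleted replicates 2 and 3 (scores -19.5 and -16.2). The deviation of a library from the gene mean was correlated with transcript length across 13035 genes, which are not independent, between -0.36 in control replicate 2 and 0.34 in control replicate 3. The labels call the cells luminal ductal. Of 8 luminal markers, KRT7, KRT8 and KRT18 had at least 1716 normalized counts in every sample, whereas ESR1 lay between 4.6 and 205.5. By the test described below, only KRT19 of these 8 passed, falling from a mean of 150 to 28.3 (limma adjusted p = 0.0196). Basal markers were read too, with summed levels of 56599 to 82011 in the controls and 44454 to 171570 in the depleted samples. The 6 basal genes did not move together. TP63, the only one that passed, fell from a mean of 748 to 38.5 (limma adjusted p = 0.0270), while KRT17 went from 10576 to 68033 and did not pass. The 4 mesenchymal markers (VIM, CDH2, FN1 and PDGFRB) summed to between 3733 and 11159 normalized counts in the controls and between 99002 and 180386 after depletion, and the 4 fibroblast markers to between 165 and 263 against 1216 and 6558. The fibroblast marker THY1 was at 0 in control replicates 1 and 2 and at most 6.7 elsewhere. The endothelial list gave sums of 167 to 1787 against 265 to 1610, but its members moved apart. CDH5 rose from a mean of 5.93 to 81.6 normalized counts (limma adjusted p = 0.0282), while KDR went from 292 to 15.8 and did not pass (limma adjusted p = 0.193). The leukocyte list, with 2 of 4 genes analysed, gave sums of 272 to 884 against 86.5 to 656. Of these, PTPRC had at most 13.8 normalized counts and CD14 had 271 to 882 in the controls, 646 in depleted replicate 1 and 72.8 and 89.4 in depleted replicates 2 and 3. The part of these shifts in the results that follow was not tested. In bulk RNA, fewer cells of a kind and less RNA per cell cannot be told apart.

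The sequences before the start sites of PLAU, the gene whose rise had the lowest p among the 5, of SERPINB2, the one gene that fell, and of PLAUR, the receptor, are shown as background on these genes, and no link between the stretches and the expression values was tested. They are the 250 bases up to the first transcribed base in the RefSeq promoter table (GRCh38.p14), read 5′ to 3′ on the strand of the gene. PLAU is at chr10:73910882-73911131 (plus strand), PLAUR at chr19:43670170-43670419 (minus strand) and SERPINB2 at chr18:63887455-63887704 (plus strand). Capitals mark every match, on either strand, to 5 motifs. AP-1 was searched as TGANTCA and the GC box as GGGCGG. The TATA motif was TATAAA, the RUNX motif was TGTGGT, with TGCGGT as its other form, and CCAAT was searched as spelled.
PLAU: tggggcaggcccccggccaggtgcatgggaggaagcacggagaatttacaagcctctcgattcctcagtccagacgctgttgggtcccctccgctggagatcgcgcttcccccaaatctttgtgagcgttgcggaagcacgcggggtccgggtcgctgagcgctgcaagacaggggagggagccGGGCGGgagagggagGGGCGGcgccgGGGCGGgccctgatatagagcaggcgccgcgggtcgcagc
PLAUR: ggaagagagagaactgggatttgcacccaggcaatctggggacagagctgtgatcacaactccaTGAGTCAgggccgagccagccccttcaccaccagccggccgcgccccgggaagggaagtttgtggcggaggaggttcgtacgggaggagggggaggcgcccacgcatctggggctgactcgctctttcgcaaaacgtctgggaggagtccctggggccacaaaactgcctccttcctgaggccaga
SERPINB2: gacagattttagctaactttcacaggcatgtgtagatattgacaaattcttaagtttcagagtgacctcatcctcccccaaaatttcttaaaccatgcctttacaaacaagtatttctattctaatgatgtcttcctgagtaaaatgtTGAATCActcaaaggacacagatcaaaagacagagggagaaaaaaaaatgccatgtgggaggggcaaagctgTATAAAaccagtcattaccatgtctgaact
The PLAU stretch held 3 GC boxes between positions -66 and -35, a motif found in 42.6% of the 35116 stretches of this table, and none of the other motifs. The PLAUR stretch held an AP-1 match, TGAGTCA, from -186 to -180. The SERPINB2 stretch held the AP-1 match TGAATCA from -102 to -96 and a TATA match from -30 to -25. Of all stretches, 6.57% held an AP-1 match and 10.7% a TATA match. The RUNX motif, in 16.3% of all stretches, and CCAAT, in 32.0%, had no match in the PLAU, PLAUR or SERPINB2 stretch. A match is a run of letters and no evidence of binding, and none of these matches fell on another. No stretch is printed for PLAT. For SERPINE2 the nearest table entry starts 646 bases from the start of the canonical transcript, and it is not printed.

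Of the 5 genes, PLAU, PLAT and SERPINE2 rose upon growth factor depletion and SERPINB2 fell, while PLAUR, with an estimate of about the 2-fold cut-off, did not pass the test. Differences were tested with limma on log2(normalized count + 1) over all 16988 genes, and calls required a change of 2-fold or more together with an adjusted p (Benjamini-Hochberg, all genes) below 0.05. In the table as a whole this called 6.33% of the genes, 4.36% as higher and 1.97% as lower without growth factors. The control and depleted samples did not overlap in any of the 5 genes, a separation seen in 25.6% of all genes tested (13.5% with the depleted samples higher and 12.1% with them lower). Tested singly, each of the 5 gave p = 0.1 by an exact permutation test (two-sided), which is the smallest value that 3 samples against 3 allow.

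**Figure D1:**
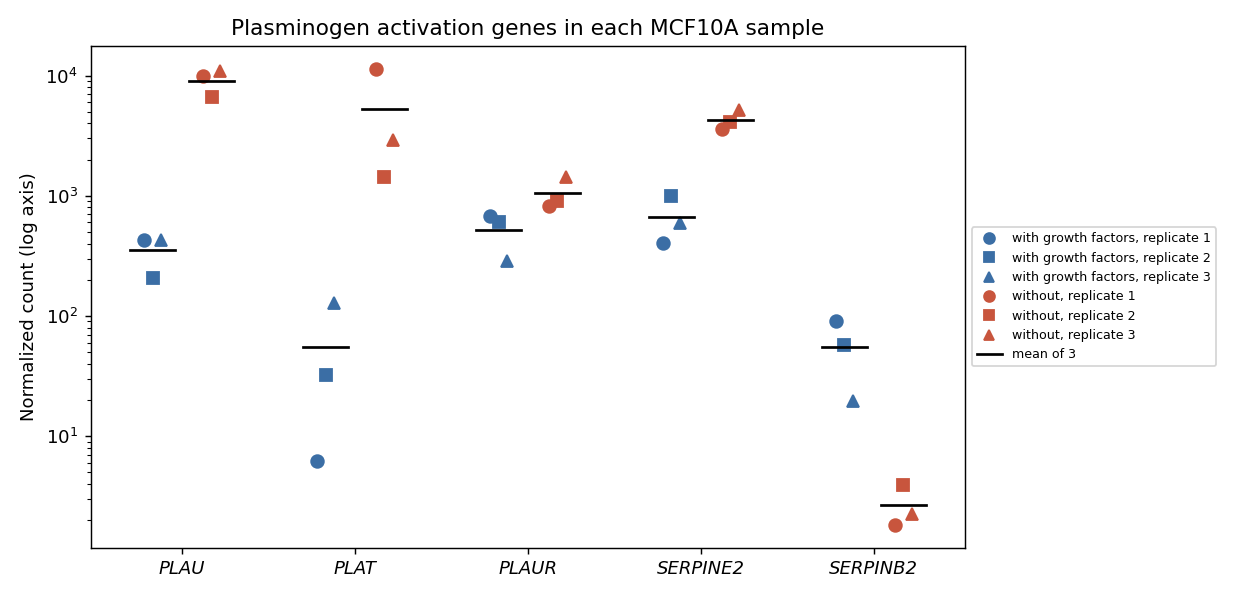
Normalized counts (log axis) of the 5 genes in each sample, with blue for cells grown with growth factors, red for cells without them, a symbol for each replicate number and a bar for the mean of 3. The red points lie above the blue for PLAU, PLAT, PLAUR and SERPINE2 and below them for SERPINB2, and PLAT is spread from 1428 to 11383 among the depleted samples.

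PLAU encodes urokinase, the activator that works at the cell surface. The gene (ENSG00000122861, protein-coding) lies on chromosome 10 of hg38 from 73909177 to 73917496 on the plus strand. Its normalized counts were 426.1, 205.0 and 425.0 in control replicates 1 to 3 and 9818, 6599 and 10802 in depleted replicates 1 to 3. The lowest depleted sample was thus far above the highest control, and the depleted samples lay close together. The means were 352 ± 127 with growth factors and 9073 ± 2198 without (SD, n = 3 each), a 25.8-fold ratio. On the log2 scale the difference was 4.73 with a standard error of 0.37 (limma adjusted p = 5.1e-04), and 177 of all genes tested, or 1.04%, had one as large or larger. Leaving out single samples, PLAU was called in 6 of 6 fits, with log2 fold changes between 4.38 and 4.94. The lncRNA gene C10orf55 overlaps PLAU on the opposite strand and had at most 82.7 normalized counts in any sample. The libraries were strand-specific, but the strand setting of the counting is not given in the sources used here.

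PLAT encodes tissue-type plasminogen activator. The gene (ENSG00000104368, protein-coding) lies on chromosome 8 of hg38 from 42174718 to 42207709 on the minus strand. The normalized counts were 6.3, 32.2 and 127.9 in control replicates 1 to 3, of which the first rested on 5 reads, and 11383, 1428 and 2929 in depleted replicates 1 to 3. Every depleted sample was above every control, but the samples of each condition differed among themselves far more than for PLAU. The means were 55.5 ± 64.1 and 5247 ± 5367 (SD, n = 3 each), and in both conditions the SD exceeded the mean. The log2 difference was 6.85 with a standard error of 1.06 (limma adjusted p = 0.00769), with a 95% interval from 4.43 to 9.26, and only 41 genes, or 0.241% of those tested, reached as high an estimate. Without depleted replicate 1, the library that stood apart, it was 6.02 (limma adjusted p = 0.0200). Without control replicate 3, which had the highest control value, it was 7.87 (limma adjusted p = 0.00474). Leaving out control replicate 1, the library with 5 reads, gave the lowest estimate, 5.79 (limma adjusted p = 0.0205), and leaving out depleted replicate 2 gave 7.52 (limma adjusted p = 0.0191). PLAT was called in 6 of 6 such fits.

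PLAUR encodes the glycolipid-anchored receptor that holds urokinase at the cell surface. The gene (ENSG00000011422, protein-coding) lies on chromosome 19 of hg38 from 43646095 to 43670547 on the minus strand. Its normalized counts were 673.0, 603.4 and 284.3 in control replicates 1 to 3 and 814.6, 895.6 and 1433 in depleted replicates 1 to 3. The depleted samples were above the controls, with a gap between the nearest samples that was smaller than the spread within either condition. The means were 520 ± 207 and 1048 ± 336 (SD, n = 3 each). The log2 fold change of 1.06 (standard error 0.40) did not pass (limma adjusted p = 0.184), and its 95% interval ran from 0.14 to 1.98, so that these data leave room for anything between little change and nearly 4 times the control level. Neither edgeR (adjusted p = 0.169) nor DESeq2 (adjusted p = 0.120) on the recovered reads called it. The estimate fell to 0.67 without control replicate 3, the lowest control sample. Urokinase and its receptor thus differed in how far they moved. Per kilobase of transcript, the ratio of PLAU to PLAUR within a library, which does not depend on scaling, was 0.370, 0.198 and 0.873 in control replicates 1 to 3 and 7.04, 4.30 and 4.40 in depleted replicates 1 to 3.

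SERPINE2 encodes protease nexin 1, a secreted and matrix-bound serpin that inhibits urokinase, tissue-type activator, plasmin and thrombin. The gene (ENSG00000135919, protein-coding) lies on chromosome 2 of hg38 from 223975045 to 224039318 on the minus strand. Its normalized counts were 404.8, 999.5 and 598.1 in control replicates 1 to 3 and 3622, 4101 and 5134 in depleted replicates 1 to 3. All depleted samples were more than 3 times the highest control. The means were 667 ± 303 and 4286 ± 773 (SD, n = 3 each), a 6.42-fold ratio. The mean difference of the log2 values was 2.76 with a standard error of 0.37 (limma adjusted p = 0.00407), and leaving out single samples moved it between 2.45 and 3.10, with SERPINE2 called in 6 of 6 fits.

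SERPINB2 encodes plasminogen activator inhibitor 2, a serpin that is found largely inside the cell and is known from keratinocytes and macrophages. The gene (ENSG00000197632, protein-coding) lies on chromosome 18 of hg38 from 63871692 to 63903888 on the plus strand. Its normalized counts were 90.2, 56.8 and 19.7 in control replicates 1 to 3 and 1.83, 3.93 and 2.24 in depleted replicates 1 to 3. In reads these values are 72, 97 and 20 against 2, 6 and 1, so that depleted replicates 1 and 3 were under the floor of 3 reads and depleted replicate 2 was just above it. SERPINB2 was thus a gene of low level in the controls and at the limit of detection in the depleted cells. Pooled within each condition, 189 reads stood against 9, which after division by library scale is a ratio of 18.3, controls over depleted, with an exact 95% interval of 9.43 to 40.6 for counting error only. By limma the log2 fold change was -3.75 (standard error 0.72, adjusted p = 0.0195), and 92 genes, or 0.542% of those tested, had a value as low. The estimate depends on the pseudocount, at -3.95 with 0.5 and -2.21 with 10, and it passed under each. With each sample left out, SERPINB2 fell in the fits without control replicate 3 (limma adjusted p = 0.00565) and without depleted replicate 1 (0.0485) but missed the threshold without control replicate 1 (0.0859), control replicate 2 (0.0754), depleted replicate 2 (0.0622) or depleted replicate 3 (0.0812). Its log2 fold change lay between -4.35 and -3.28 in these fits. A second protein-coding gene model of Gencode v44, ENSG00000289724, overlaps SERPINB2 on the same strand and is not analysed here.

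**Figure D2:**
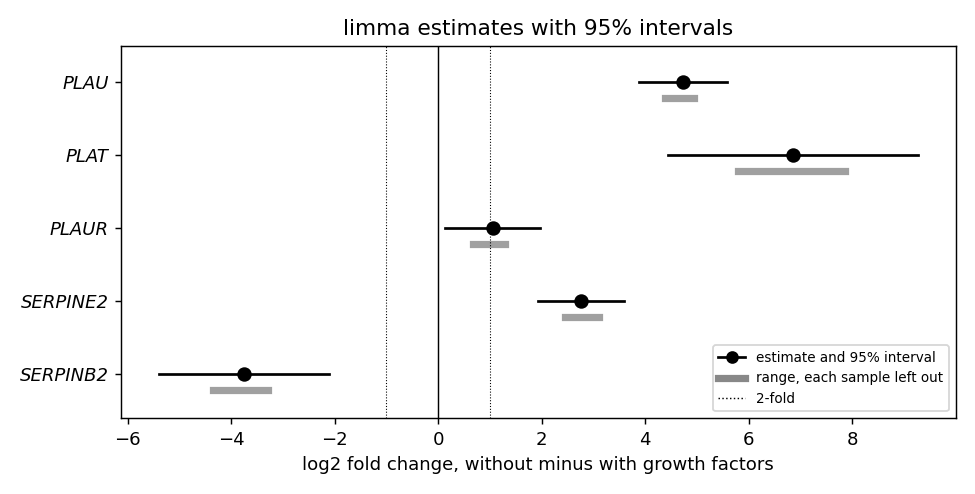
Estimated log2 fold changes (without minus with growth factors, horizontal axis) of the 5 genes by limma, with 95% intervals in black and the range over the 6 fits that each left out a sample in grey. The intervals of PLAU, PLAT and SERPINE2 lie wholly above the 2-fold line and that of SERPINB2 wholly below the negative one, while the interval of PLAUR, from 0.14 to 1.98, spans the 2-fold line.

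Levels can be compared between genes only after division by transcript length, for which the canonical transcript of Gencode v44 was used. By the means over the controls the order was PLAUR at 380 ± 152 normalized counts per kilobase, SERPINE2 at 300 ± 136, PLAU at 150 ± 54.3, SERPINB2 at 29.2 ± 18.5 and PLAT at 18.1 ± 20.9 (SD, n = 3 for each). Among these neighbours, PLAUR overlapped SERPINE2, SERPINE2 overlapped PLAU and SERPINB2 overlapped PLAT, and only the step from PLAU to SERPINB2 was free of overlap. PLAUR was above SERPINE2 in control replicate 1 (492 against 182) but below it in control replicates 2 (441 against 449) and 3 (208 against 269). By the means over the depleted cells PLAU came first at 3872 ± 938 normalized counts per kilobase, then SERPINE2 at 1925 ± 347, PLAT at 1714 ± 1753, PLAUR at 766 ± 246 and SERPINB2 at 1.40 ± 0.585 (SD, n = 3 for each). Here PLAU lay above SERPINE2 in every sample, and PLAT, from 466 to 3718, overlapped PLAU, SERPINE2 and PLAUR. PLAT was above PLAUR in depleted replicate 1 (3718 against 595) and below it in depleted replicates 2 (466 against 655) and 3 (957 against 1048). With the union of all exons as the length, the order of the control means was PLAU (119 per kilobase), PLAUR (117) and SERPINE2 (74.5), and in the depleted cells PLAT (675) came before SERPINE2 (478).
Within each library, PLAU made up 98.9%, 89.3% and 81.3% of the summed level per kilobase of the 2 activators in control replicates 1 to 3, and 53.0%, 85.8% and 82.8% in depleted replicates 1 to 3. PLAU was the larger of the activators in all 6 samples, by little in depleted replicate 1. With the union of all exons as the length, its share in depleted replicate 1 was 69.4%. The inhibitors were compared in the same way together with SERPINA5 (protein C inhibitor) and SERPINI1 (neuroserpin). SERPINE2 accounted for 6.43%, 65.9% and 33.6% of the summed level of these 4 serpins in control replicates 1 to 3 and for 95.2%, 96.9% and 98.0% in depleted replicates 1 to 3. SERPINB2 made up between 1.29% and 4.38% in the controls and at most 0.109% after depletion. SERPINA5 held the first place among the 4 in control replicates 1 and 3, and SERPINE2 held it in control replicate 2 and in every depleted sample. With the union of all exons as the length, SERPINE2 and SERPINA5 were nearly level in control replicate 2 (43.1% against 41.7%).

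**Figure D3:**
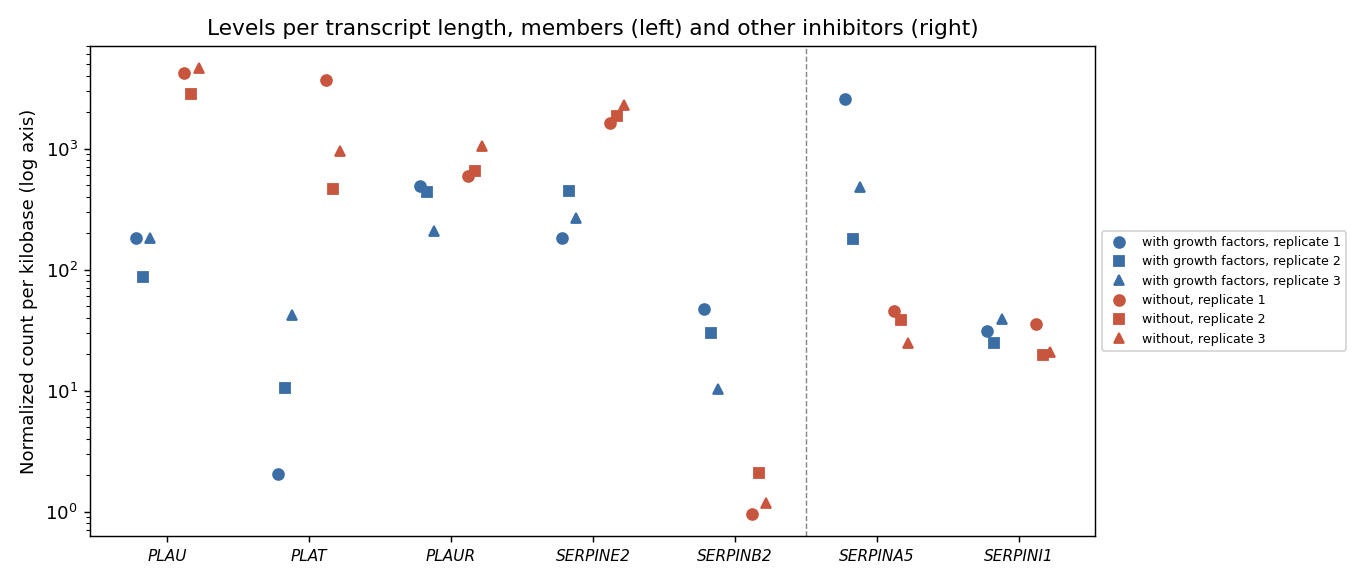
Normalized counts per kilobase of canonical transcript (log axis) in each sample for the 5 genes and, right of the dashed line, for SERPINA5 and SERPINI1, with the colours and symbols of the plot of normalized counts. PLAU is above SERPINE2 in all depleted samples, SERPINB2 is at most 2.06 there, and SERPINA5 is lower in each depleted sample than in any control.

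Around the 5 genes, 50 others of the system and its surroundings were listed by role, of which 36 could be tested. By limma 6 were higher and 3 lower without growth factors, 9 of 36, where 6.33% of all genes were called. The median log2 fold change of the 36 was 0.40, against -0.03 for all genes tested.
Of the proteases that activate the proform of urokinase, none of 5 tested passed, and their median was -0.49 on the log2 scale. By edgeR and by DESeq2 0 were called too, and 1 of the 5 had an unadjusted p under 0.05, as did 20.0% of all genes tested. This was CTSB, the cysteine protease cathepsin B, which went from 7870, 7645 and 6941 normalized counts with growth factors to 11840, 12690 and 18460 without them, or 0.91 on the log2 scale (limma adjusted p = 0.164). By DESeq2 its adjusted p was 0.0288, but its log2 fold change of 0.95 was under the 2-fold cut-off. ST14, the gene of the membrane protease matriptase, had 2603 to 6669 normalized counts in the controls, and it had 331 in depleted replicate 1 against 3841 and 4195 in depleted replicates 2 and 3. PLG, the gene of plasminogen itself, was not analysed here.
Of the other inhibitors, 1 of 4 was higher and 1 lower. A2M, the gene of the broad protease trap α2-macroglobulin, had 3 reads or fewer in each control and 9047, 252 and 389 normalized counts in depleted replicates 1 to 3, at least 1144-fold higher by the means and the mean floor over the controls (limma adjusted p = 0.00561, edgeR adjusted p = 0.0141). Depleted replicate 1 carries this limit, which is 114-fold without it. DESeq2 on the recovered reads gave A2M no adjusted p and so did not call it. SERPINA5 fell from 5845, 405 and 1096 normalized counts in the controls to 104, 86.5 and 55.9 in depleted replicates 1 to 3, with a mean difference of the log2 values of -4.09 (limma adjusted p = 0.0248). With single samples left out its adjusted p ranged from 0.0109 to 0.0917, missing the threshold without depleted replicate 2 or 3. SERPINI1 and SERPINF2, the gene of α2-antiplasmin, did not pass, with log2 fold changes of -0.34 and -1.23.

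Of the cell-surface plasminogen receptors, 0 of 4 passed by limma, edgeR or DESeq2, and 0 had an unadjusted p under 0.05. Their estimated log2 fold changes were small: -0.24 for ENO1 (enolase 1), 0.09 for ANXA2 (annexin A2), 0.02 for its partner S100A10 and 0.43 for PLGRKT, with a median of 0.06. The 95% intervals were wide: -1.71 to 1.22 for ENO1, -1.04 to 1.21 for ANXA2, -1.12 to 1.17 for S100A10 and -0.96 to 1.81 for PLGRKT. Each leaves room for a 2-fold change in at least 1 direction. ENO1 and ANXA2 were among the highest genes of the system, with at least 14873 and 8961 normalized counts in every sample.
Of 11 clearance receptors and co-receptors of urokinase and its receptor, 2 were higher and none lower, and the median log2 fold change was 1.17. MRC2, which encodes the collagen-uptake receptor that associates with the urokinase receptor, rose from 62.7, 129 and 322 to 4162, 1627 and 1183 normalized counts, which is 3.85 on the log2 scale (limma adjusted p = 0.0109), and was called in 6 of 6 fits that left out a sample. ITGB3, the integrin β3 subunit of vitronectin receptors, rose from 1.25, 0.586 and 3.93 to 21.1, 123 and 134 normalized counts (log2 fold change 4.78, limma adjusted p = 0.0151). Its control values rested on 1, 1 and 4 reads. Its adjusted p ran from 0.00727 to 0.0873 when each sample was left out, and the call was lost without control replicate 1, depleted replicate 2 or depleted replicate 3. LRP1, the main endocytic receptor for complexes of activator and inhibitor, was read at 238 and 354 normalized counts in control replicates 1 and 2 but 7054 in control replicate 3, against 22704, 5324 and 3394 in depleted replicates 1 to 3. The conditions overlapped and LRP1 did not pass (log2 fold change 3.14, limma adjusted p = 0.195). Without control replicate 3 it was 4.67 with a limma adjusted p of 0.0112. VLDLR, which also takes up such complexes, had a log2 difference of 2.15 and did not pass (limma adjusted p = 0.0814). DESeq2 called it (adjusted p = 0.0115).

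Thrombin is a target of SERPINE2, and of 8 genes of the thrombin and tissue factor pathway 3 rose and 1 fell. PROS1, the gene of the anticoagulant protein S, rose from 202, 113 and 150 to 764, 917 and 1084 normalized counts (log2 fold change 2.59, limma adjusted p = 0.00350) and was called in 6 of 6 fits that left out a sample. F3, which encodes tissue factor, the initiator of coagulation, rose from 2829, 5604 and 3863 to 8893, 22078 and 31368 normalized counts (log2 fold change 2.22, limma adjusted p = 0.0395). TFPI, the inhibitor of the tissue factor complex, fell from 437, 1657 and 455 to 157, 22.9 and 33.5 normalized counts (log2 fold change -3.77, limma adjusted p = 0.0258). By edgeR it missed the threshold (adjusted p = 0.0511), and by DESeq2 it passed (adjusted p = 7.8e-05). TFPI2, a relative that also inhibits plasmin, rose from 1.25, 8.20 and 4.92 to 116, 49.8 and 42.5 normalized counts (log2 fold change 3.68, limma adjusted p = 0.0215). Its control values rested on 1, 14 and 5 reads. F3, TFPI and TFPI2 each passed in 2 of 6 such fits. These were the fits without control replicate 3 or depleted replicate 1 for F3 and TFPI, and without control replicate 2 or 3 for TFPI2. The highest adjusted p of these fits was 0.148 for F3, 0.0970 for TFPI and 0.0851 for TFPI2. The thrombin receptors F2R and F2RL1 had log2 fold changes of 1.81 and 0.38 and did not pass by limma. DESeq2 called F2R (adjusted p = 0.0326).
The clade B serpins in the same chromosome 18 cluster as SERPINB2 did not move as one. SERPINB3, squamous cell carcinoma antigen 1, had 7.52, 238 and 58.0 normalized counts in its controls and 3 reads or fewer in each depleted sample, at least 26.6-fold lower by the means and the mean floor over the depleted samples (limma adjusted p = 0.0353). This limit is 8.61-fold without control replicate 2. It passed in 2 of 6 fits that left out a sample, those without control replicate 1 or 3, with adjusted p between 0.0149 and 0.117. SERPINB5 (maspin), SERPINB7 and SERPINB8 did not pass, with log2 fold changes of -0.36, 0.69 and 0.31.

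**Figure D4:**
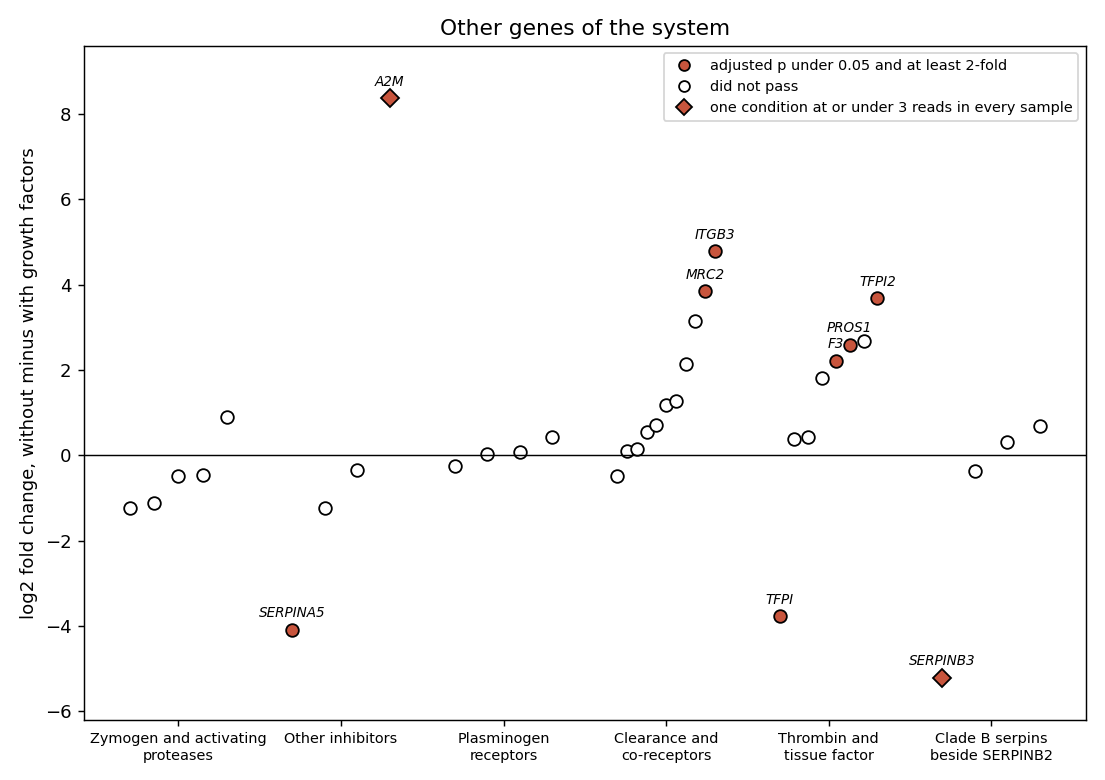
Log2 fold changes by limma (vertical axis, without minus with growth factors) of the 36 further genes tested, in columns by role, filled where the gene was called and named there. Diamonds mark A2M and SERPINB3, which had 3 reads or fewer in every sample of one condition, so that their plotted heights depend on the pseudocount. The height of ITGB3, with 1, 1 and 4 reads in the controls, depends on it too. The 4 plasminogen receptors lie near 0, and the 6 called rises fall in the columns of inhibitors, clearance and co-receptors, and thrombin and tissue factor.

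From the 11688 genes whose mean reached 100 normalized counts, those whose log2 values over the 6 samples followed each member most closely were named by Pearson's r, as a description, since each r over 6 samples in 2 conditions mostly reflects the step between the conditions. For PLAU they included ABHD6 (r = 0.998), which went from a mean of 80.1 to 240 normalized counts, and LMOD1 (0.998). LMOD1 had a mean of 0.746 in the controls and 278 in the depleted samples, so it reached the minimum mean only through the latter. PLAT was followed most closely by SELENOM (0.997), CCDC106 (0.996) and CYTH3 (0.996). For PLAUR the nearest were the tetraspanin gene CD151 (0.997), OGFOD3 (0.995) and TBCC (0.995), and CD151 went from a mean of 4086 to 8919 normalized counts. SERPINE2 had NFE2L3 (0.997), FAM171A1 (0.996) and JMJD4 (0.996). The nearest to SERPINB2 were ACSL3 (0.996), ZNF277 (0.996) and LPIN1 (0.994), which have roles in fatty acid and phosphatidate metabolism in the case of ACSL3 and LPIN1. LPIN1 went from 4451 to 1366 normalized counts.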

How the data were processed

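RNA-Seq was available for 6 samples of MCF10A cells, 3 per condition by the sample labels, whereas the design text of the deposit names 2 replicates. Ribosomal RNA was removed by the authors before strand-specific library preparation, and they sequenced single-end reads of 100 bases. Reads were mapped to hg38 with TopHat2 and counted with HTSeq on Gencode v22, and the submitters' processing notes also name cutadapt 1.6 and DESeq2 1.8.1. The table as deposited gives a signal for each gene, a normalized count: the authors divided each count by the size factor of its sample, without division by gene length. Of the values, 100% were whole multiples of the smallest value of their sample (within 0.01 of a whole number), so reads were recovered. A floor of 3 reads corresponds to 1.76 to 6.71 normalized counts, and floors and intervals cover counting error only.
limma 3.58.1 (R 4.3.3, lmFit and eBayes with trend) was run after transforming to log2(normalized count + 1), on the 16988 genes whose mean reached 10, with Benjamini-Hochberg adjustment over all of them. Fold changes on this scale understate those of low genes. Gencode v44 (hg38) supplied names, coordinates and lengths and covered 18913 of 19198 identifiers. The procedure was tested on simulated data. Genes were named as the 5 members, the members of lists by role where called or where a list has at most 4 tested genes, and the 3 nearest genes by correlation, besides cell type markers. Some genes that this rule or the lists would name are not reported here. CTSB, ST14, SERPINI1, SERPINF2, LRP1, VLDLR, ITGA3, ITGB1, F2R and F2RL1, none of them called by limma, were named after their values were seen. The members and lists were chosen with earlier results of these data known. Alternatives included other pseudocounts, filters and scalings, each sample left out, the replicate block, and edgeR 4.0.16 and DESeq2 1.42.0 on recovered reads. Adjustment for GC content and transcript length was added after seeing the data, as were the fold limits without single samples.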

Additional observations from a re-analysis of the deposited data

How the results depend on the processing

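Direction and call were the same for PLAU, PLAT, PLAUR and SERPINE2 under all 17 alternatives, and for SERPINB2 under 12 of 16, the exceptions being the 4 fits without a sample given above. SERPINB2 has no value under a minimum mean of 50, so 3 of the 5 genes were called there. The count of members called was 3 or 4 in each fit without a sample. Over all genes, 2112 were called by DESeq2 against 1076 by limma, 1706 at an adjusted p under 0.1, and between 453 (without depleted replicate 2) and 2474 (without control replicate 3) with single samples left out. The other genes by role gave between 3 and 10 calls in those fits, against 9. By edgeR they gave 8 and by DESeq2 12. DESeq2 called VLDLR, F2R, ITGA3 (adjusted p = 0.00662) and ITGB1 (adjusted p = 0.0323), which limma did not, and gave A2M no adjusted p. With the union of all exons as the length, the level in depleted cells was 235 per kilobase for PLAUR and 478 for SERPINE2. Same-numbered samples of the conditions showed no shared deviation (correlations of -0.07, -0.28 and -0.32). Deviations centred within only 3 samples cannot show whether the numbers mark paired cultures. With the replicate block, 967 genes were called, 4 of them members. Depth limits SERPINB2, for which 9 reads were counted in all depleted samples.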

Other observations

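Depleted replicate 1 differed from depleted replicates 2 and 3 within this system. It had the highest PLAT (11383 against 1428 and 2929 normalized counts), A2M (9047 against 252 and 389) and LRP1 (22704 against 5324 and 3394), and the lowest ST14 (331 against 3841 and 4195). For PLAU (9818 against 6599 and 10802) and SERPINE2 (3622 against 4101 and 5134) it lay close to the other two. Some cell type markers set this library apart too. PDGFRB was at 3322 against 349 and 447 normalized counts and DCN at 4495 against 449 and 481. EPCAM was at 153 against 2281 and 2486 and KRT5 at 562 against 10908 and 14996. Other members of the mesenchymal, luminal and basal lists went the other way. FN1 was at 48562 against 159901 and 117025 and CDH2 at 2284 against 3594 and 3007. MUC1 was at 1032 against 323 and 87.2, GATA3 at 692 against 285 and 186, and KRT14 at 980 against 193 and 306. What sets this library apart was not tested.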
